A study of Mus musculus with 4 samples.

Results

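The Wnt genes described here are 40 mouse genes chosen by symbol. They include 6 Wnt ligands, 11 receptors and co-receptors and 5 secreted inhibitors. A further 10 are genes of the destruction complex, the beta-catenin gene Ctnnb1 and the Dishevelled family. The rest are 4 TCF/LEF transcription factors, 2 feedback genes and 2 genes of ligand secretion. Of the 16051 genes in the expression table, 39 are among these 40. Axin2 was not analysed here. RNA was sequenced from differentiated 3T3-L1 cells, a line of mouse embryonic fibroblasts (strain NIH SWISS) that can be turned into fat cells in culture. Cells were kept for 48 h with 100 μM risperidone, an antipsychotic drug, or without it, in 2 libraries each. The labels call the control cells untreated, whereas the study's methods say that they received DMSO, the drug's solvent. By the same methods each library came from 3 pooled cultures of this 1 cell line, so that all p-values measure only the spread between these libraries. The labels also name an extraction from retina, which the methods do not mention.

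The libraries held between 15883712 and 16374119 estimated counts. Of the adipocyte markers listed, 6 of 14 reached a mean of 1 FPKM (a level scaled by transcript length and library size), among them Pparg, Fabp4 and Lpl. Adipoq had at most 1 count in any library, and Cebpa, Cidec, Lep, Retn, Cfd and Slc2a4 had at most 5. Plin1 had 9 and 14 counts in control and 1 in each risperidone library. How far the cells had become fat cells was not tested. Summed adipocyte markers came to 484 and 541 FPKM in the control libraries and 353 and 368 with risperidone. Of the 6 genes, Lpl, Fabp4, Plin4 and Lipe were lower in both risperidone libraries, whereas Pnpla2 went from 54.9 and 58.3 to 62.8 and 61.4 FPKM and Pparg was at 12.5 and 11.4 against 12.8 and 12.5 FPKM. Fibroblast markers reached that level for 8 of 9 genes, with sums of 1617 and 1574 FPKM in control and 1777 and 1779 with risperidone. Within this list Col1a1 went from 380 and 368 to 715 and 674 FPKM and Dlk1 and Thy1 were also higher, while Col1a2, from 1029 and 992 to 833 and 865 FPKM, and Col3a1, Pdgfrb and Pdgfra were lower. Ly6a was at 5.58 FPKM in the second risperidone library and 1.84 to 2.49 FPKM in the others. None of the 6 retina markers in the table reached it. The second risperidone library stood apart, since all 20 kidney markers were highest there, with a sum of 208 FPKM against 2.12 to 3.13 FPKM in the other libraries. The 5 endothelial markers in the table were also highest there, with 41 counts in all against 7 to 8, and none reached 1 FPKM. Results were therefore also computed without that library. The 7 macrophage markers summed to 15.5 to 18.3 FPKM in the 4 libraries. Among them Cd68 went from 2.64 and 3.50 FPKM in control to 6.34 and 6.70 with risperidone, and Cd14 from 12.65 and 14.18 to 9.97 and 9.67 FPKM. The part of these markers in the values of the Wnt genes was otherwise not tested. In pooled cultures, a smaller share of a cell type and less RNA per cell cannot be told apart.

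Wnt ligands are secreted glycoproteins that carry a lipid attached by Porcn and leave the cell with the carrier Wls. At the cell surface they bind a Frizzled receptor and the co-receptor Lrp5 or Lrp6, and Dishevelled proteins then hold back the destruction complex of Axin, Apc, Gsk3 and casein kinase, which otherwise marks beta-catenin for breakdown. Beta-catenin that escapes enters the nucleus and works with TCF/LEF factors on target genes. In preadipocytes, signaling through beta-catenin is known for holding back the formation of fat cells.

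The upstream sequences of 4 members are shown first, a Frizzled receptor (Fzd1) and a Dishevelled gene (Dvl2) that were lower with risperidone and a Dishevelled gene (Dvl1) and a TCF/LEF factor (Tcf7l2) that were higher. Fzd1 lies on chromosome 5 from 4753839 to 4758216, Dvl2 on chromosome 11 from 70000592 to 70010109, Dvl1 on chromosome 4 from 155847402 to 155859303 and Tcf7l2 on chromosome 19 from 55741797 to 55933659 (RefSeq, GRCm38.p6). Each sequence is the run of 250 bases before a start that RefSeq lists for the gene (for Tcf7l2, 1 of 2 starts, a few bases inside the gene's outer limit), 5′ to 3′ on the gene's own strand, at chr5:4758217-4758466 (minus strand) for Fzd1, chr11:70000342-70000591 (plus) for Dvl2, chr4:155847152-155847401 (plus) for Dvl1 and chr19:55741560-55741809 (plus) for Tcf7l2. Capitals mark 4 short motifs searched as written and as their reverse complement. One is the core of a TCF/LEF site, spelled CTTTGA. The GC box was searched as GGGCGG, and neighboring GC boxes may overlap. The others were the CCAAT box, searched by its name's letters alone, and the TATA box, searched as TATAAA.
Fzd1: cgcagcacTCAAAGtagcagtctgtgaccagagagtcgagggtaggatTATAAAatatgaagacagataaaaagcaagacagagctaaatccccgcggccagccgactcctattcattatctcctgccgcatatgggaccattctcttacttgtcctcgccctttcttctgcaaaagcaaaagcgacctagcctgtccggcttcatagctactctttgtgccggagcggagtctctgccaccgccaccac
Dvl2: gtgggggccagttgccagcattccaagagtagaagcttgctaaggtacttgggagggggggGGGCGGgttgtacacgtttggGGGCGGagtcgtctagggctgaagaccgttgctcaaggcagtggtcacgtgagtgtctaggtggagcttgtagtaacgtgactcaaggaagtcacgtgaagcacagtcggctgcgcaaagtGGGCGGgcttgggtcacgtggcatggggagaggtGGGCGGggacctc
Dvl1: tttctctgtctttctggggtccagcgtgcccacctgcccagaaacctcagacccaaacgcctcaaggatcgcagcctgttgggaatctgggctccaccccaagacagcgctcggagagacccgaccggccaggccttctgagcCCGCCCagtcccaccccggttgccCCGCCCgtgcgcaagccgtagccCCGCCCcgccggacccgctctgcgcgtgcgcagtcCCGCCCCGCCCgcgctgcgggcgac
Tcf7l2: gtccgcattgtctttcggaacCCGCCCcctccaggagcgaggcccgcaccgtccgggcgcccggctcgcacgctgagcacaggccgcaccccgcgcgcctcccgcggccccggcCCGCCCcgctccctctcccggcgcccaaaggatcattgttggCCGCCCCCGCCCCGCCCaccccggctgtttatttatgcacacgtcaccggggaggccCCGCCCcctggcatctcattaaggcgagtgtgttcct

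The Fzd1 window held 1 TCF/LEF core and 1 TATA box and no GC box, whereas those of Dvl2, Dvl1 and Tcf7l2 held 4, 5 and 6 GC boxes. Such windows were at hand for 27 members, 14 of them tested. A GC box was present in 12 of the 14 windows, against 32.9% of 27025 mouse genes, and a TCF/LEF core in 3 of 14, against 14.0%. The CCAAT box was found in 6 of 14 windows (34.5% of all genes) and the TATA box in 3 of 14 (13.0%). The median GC content of the 14 windows was 68.2%, against 52% over all genes. These 14 genes averaged 1 FPKM or more, whereas the 27025 were not chosen by expression, so that the sets are unlike. The part of expression in these differences was not tested. These letter matches describe the windows and show no binding of a factor. The annotated start of Fzd1 in RefSeq lies outside the GENCODE transcript of this gene, so that its window may not adjoin the start used in these cells.

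To determine how Wnt genes responded to risperidone, counts were compared between the treatments with edgeR's quasi-likelihood test over the 10243 genes that averaged 1 FPKM or more across the libraries, and a gene was called at a Benjamini-Hochberg adjusted p under 0.05. Of the 39 members in the table, 24 passed that limit on low values and 15 did not. With risperidone, 15 of the 24 were lower, 5 were higher and 4 were not called. Over all genes tested, 32.2% were called lower and 32.1% higher, in all 64.3%. The median log2 fold change of the 24 members was -0.24, and that of all genes was 0.00. FPKM values of the treatments did not overlap for 22 of the 24 members, but this held for 82.2% of all genes tested. On the deposited TPM scale the median of all genes itself moved by -0.22, and the split of the members there was 18 lower and 1 higher, with a median of -0.46. In limma on that scale 51.7% of all genes were lower and 15.0% higher, in all 66.7%. With library size as the only scaling, where the median of all genes was -0.093 and 39.9% of them were lower and 24.4% higher (64.4% in all), 17 members were lower and 2 higher. Without the risperidone library that held kidney transcripts, 13 were lower and 3 higher, when 32.7% of all genes were lower and 32.3% higher, in all 65.0%. Among genes called with a log2 fold change of 1 or more in size, 2 members (Fzd1 and Fzd8) were lower and 0 higher, compared with 3.91% and 2.61% of all genes. Fzd8 passed the limit on low values only through its control level. Without it, 14 of 23 members were lower and 5 higher, with a median log2 fold change of -0.22. The members' values by library show receptors of low and high level lying to the left after risperidone, with the 3 Dishevelled genes moving apart.

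**Figure D1:**
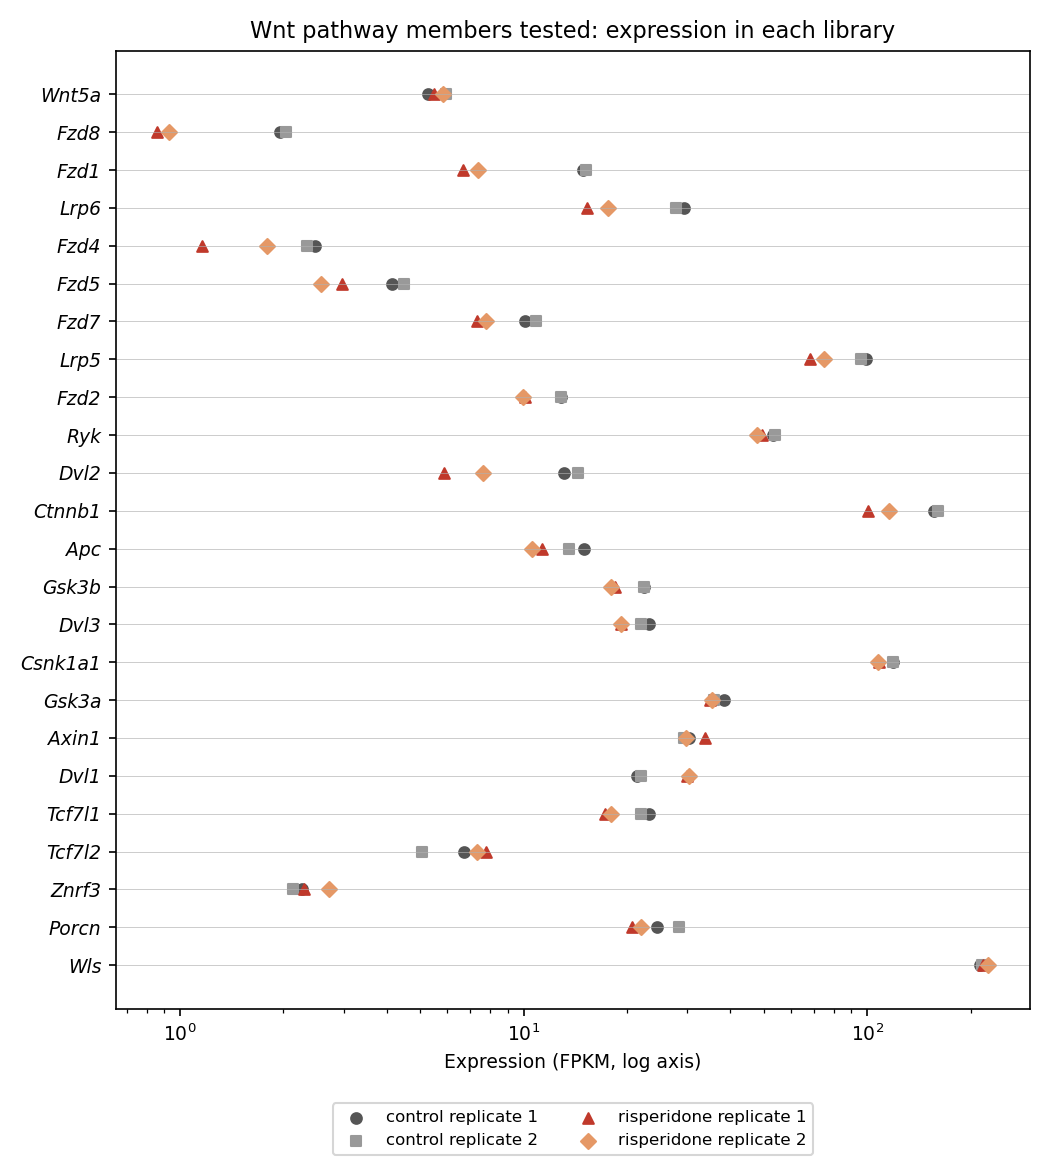
Expression of the 24 tested Wnt genes in each of the 4 libraries, in FPKM on a log axis, with genes ordered by role from ligand to secretion. Grey points are control libraries and red or orange points risperidone libraries; Fzd1 lies at 14.9 and 15.3 FPKM in control and at 6.65 and 7.39 FPKM with risperidone.

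Most receptors that could be tested were lower. Of 11 receptor genes, 9 were tested, and 8 of these were lower with risperidone and none was higher, over 32.2% and 32.1% of all genes, with a median log2 fold change of -0.54. Without Fzd8, which passed the limit on low values only through its control level, 7 of 8 were lower, with a median of -0.46. All 6 Frizzled members tested and both LDL-receptor-related co-receptors were lower, and Ryk was not called. Leaving out the risperidone library with kidney transcripts, the Frizzled and co-receptor genes gave log2 fold changes from -1.11 (Fzd8) to -0.25 (Fzd2). The 8 lower receptors also remained below the threshold for the adjusted p with offsets for transcript length and GC content, where 30.0% of all genes were lower, and in DESeq2, where 25.9% were.

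Fzd1, a receptor for several Wnt ligands (NCBI Gene 14362), measured 14.9 and 15.3 FPKM in the control libraries and 6.65 and 7.39 FPKM with risperidone. Both risperidone libraries were below both control libraries, at about the level that Fzd7 had after treatment. The log2 fold change was -1.01 (SE 0.067, edgeR BH-adjusted p = 4.4e-07), or 49.8% of control. Fzd8, another Frizzled receptor, was listed at 1.96 and 2.04 FPKM in control and 0.86 and 0.93 FPKM with risperidone. Its counts were low, 103 and 104 in control and 45 and 48 with risperidone, and did not overlap. The log2 fold change of Fzd8 was -1.06 with an SE of 0.19 (edgeR BH-adjusted p = 0.000504). Because it was under 1 FPKM with risperidone, Fzd8 passed the limit through the control group alone; in the fit without that limit it was -1.06 (adjusted p = 0.0034).

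Lrp6, a co-receptor that Wnt ligands bring together with Frizzled, had 29.4 and 27.8 FPKM in control and 15.3 and 17.6 FPKM with risperidone. This came to 63.3% of control, with a log2 fold change of -0.66 (SE 0.06, edgeR BH-adjusted p = 3.88e-06). Its close relative Lrp5 was expressed at a higher level, 99.0 and 96.3 FPKM in control and 68.2 and 74.7 FPKM with risperidone. Here the groups did not overlap either, and the log2 fold change was -0.35 (SE 0.053, edgeR BH-adjusted p = 0.000172). The log2 ratio of Lrp6 to Lrp5 FPKM was -1.75 and -1.79 in control and -2.16 and -2.09 with risperidone, a difference of -0.35 (exact permutation test, two-sided, p = 0.333). With 2 libraries against 2, that is the smallest p such a test can give, here and for each ratio below.

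Among the remaining Frizzled genes, Fzd5 fell from 4.13 and 4.48 FPKM to 2.96 and 2.58 FPKM, a log2 fold change of -0.54 (SE 0.088). Fzd7 was at 10.1 and 10.9 FPKM in control and 7.30 and 7.79 FPKM with risperidone, a log2 fold change of -0.38 (SE 0.064). In GENCODE, a transcript of unknown kind on the opposite strand covers 17.8% of the exonic bases of Fzd5. Neither gene had overlapping groups, and edgeR BH-adjusted p-values were 0.00028 and 0.000371. Fzd2 showed the smallest decrease of the family, from 12.8 FPKM in both control libraries to 10.1 and 9.94 FPKM, which was 83.4% of control (edgeR BH-adjusted p = 0.00182). Fzd4, which also serves as the receptor of Norrin, was at 2.48 and 2.34 FPKM in control and 1.16 and 1.79 FPKM with risperidone. Its risperidone libraries were far apart, and the log2 fold change of -0.61 (SE 0.20, edgeR BH-adjusted p = 0.0198) varied with the library left out. Without the second risperidone library, which held kidney transcripts, it was -0.95 (adjusted p = 0.000406). Without the first risperidone library the value was -0.34 (adjusted p = 0.106), and without the first control library it was -0.57 (adjusted p = 0.0731). Without any limit on low values the log2 fold change of Fzd4 was unchanged at -0.61, with an edgeR BH-adjusted p of 0.0746.

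Ryk, a receptor of the tyrosine kinase family that binds Wnt ligands, was expressed at 53.1 and 54.0 FPKM in control and 49.5 and 47.7 FPKM with risperidone. Its log2 fold change was -0.04 (SE 0.047), and edgeR did not call it (BH-adjusted p = 0.438). The FPKM values themselves did not overlap, which held for 82.2% of all genes tested. Ryk was called lower by limma on log2(FPKM + 1), at -0.14, and on TPM, at -0.28. On those scales the median of all genes was itself -0.08 and -0.22, and 38.8% and 51.7% of them were lower. Ror2, a receptor for Wnt5a, had 5 counts in each control library and 7 in each risperidone library, too few to compare. Fzd6 had 2 counts in the second risperidone library and 0 in the other libraries, where a count of 0 allows up to 3 counts, or 0.183 to 0.189 CPM (counts scaled by library size).

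**Figure D2:**
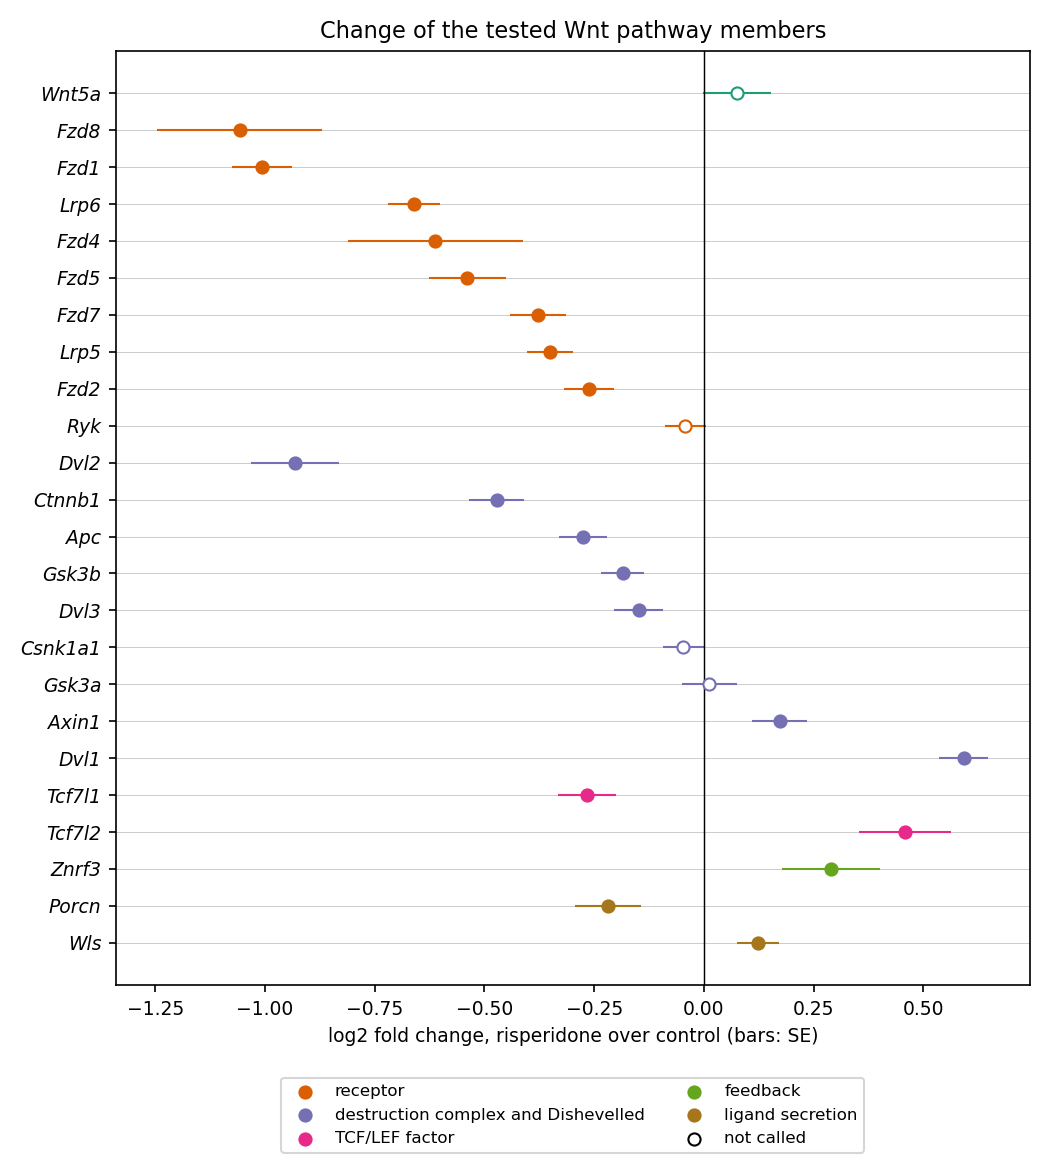
Log2 fold change of each tested Wnt gene, risperidone over control, from edgeR, colored by role (Wnt5a, the ligand, in green at the top), with bars of 1 SE. Filled points were called at an adjusted p under 0.05 and open points were not; 8 of 9 receptors lie left of 0 and are filled, and Dvl1 lies farthest to the right at 0.59.

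Because individual Frizzled genes fell by different amounts, the make-up of the family changed. FPKM summed over the 7 Frizzled genes tested, which are the 6 members and Fzd3, came to 48.4 and 49.9 in control and 29.9 and 31.4 with risperidone. Fzd1 supplied 30.7% and 30.6% of that sum in control and 22.2% and 23.6% with risperidone. Fzd2 moved the other way as a share, from 26.5% and 25.7% to 33.7% and 31.7%, although its own level fell. Fzd1 was thus the Frizzled gene of the highest FPKM in both control libraries and Fzd2 in both risperidone libraries. Differences in each of these shares gave an exact permutation p of 0.333.

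Ligand genes were mostly at the limit of detection. Wnt5a, a ligand best known for signaling that does not pass through beta-catenin, was the only one of 6 that could be tested. It was at 5.26 and 5.96 FPKM in control and 5.48 and 5.82 FPKM with risperidone, so that the risperidone libraries lay between those of the control. The log2 fold change was 0.07 (SE 0.078, edgeR BH-adjusted p = 0.417), and it was negative with library size scaling (-0.02) and on the TPM scale (-0.12).

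Wnt4 had 16 and 10 counts in the control libraries and 40 in each risperidone library, below 1 FPKM in all of them. In the same test without a limit on low values, in which 18.4% of genes were called higher and 19.3% lower, its log2 fold change was 1.71 (SE 0.33, edgeR BH-adjusted p = 0.0118). This call was lost without the first control library (adjusted p = 0.0887) or the second (adjusted p = 0.102), in fits that called fewer genes in all. Wnt9a showed the opposite order, with 14 and 15 counts in control and 6 in each risperidone library, and did not pass the threshold (log2 fold change -1.17, edgeR BH-adjusted p = 0.12). Wnt5b had 8 and 4 counts in control and 5 and 1 with risperidone. Wnt10b, which is known to hold back adipogenesis, had 3 and 2 counts in control and 0 and 2 with risperidone, and Wnt11 had at most 1 count in any library. Differences in these last genes were not detectable at this depth.

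Secreted inhibitors keep Wnt ligands or their co-receptors from acting, and none of the 5 members could be tested. Sfrp1, a decoy with a Frizzled-like domain, had 11 counts in the second risperidone library, which is the one with kidney transcripts, and 0 in each of the other libraries. The part of those transcripts in this value was not tested. Sfrp2 had 1 and 0 counts in control and 3 and 0 with risperidone. Dkk2 and Dkk3 each had 1 count in the second risperidone library alone, and Wif1 had 1 count in the first control library alone. No comparison can be drawn from these counts.

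Downstream of the receptors, 9 genes of the destruction complex, the beta-catenin gene Ctnnb1 and the Dishevelled family were tested. Of these, 5 were lower, 2 were higher and 2 were not called, over 32.2% and 32.1% of all genes. Their median log2 fold change was -0.15. With the length and GC offsets the median was -0.045. There 3 were lower (Ctnnb1, Dvl2 and Dvl3) and 1 was higher (Dvl1), over 30.0% and 34.3% of all genes in that fit. Of the genes of the complex itself, Apc and Gsk3b were lower and Axin1 higher in the main fit, and none was called with the offsets. The Dishevelled genes, whose products carry the signal from Frizzled to the Axin complex, diverged. Dvl1 rose from 21.4 and 22.0 FPKM in control to 29.9 and 30.3 FPKM with risperidone, and the groups were well apart. The log2 fold change of Dvl1 was 0.59 (SE 0.056, edgeR BH-adjusted p = 5.02e-06), the largest increase among the 24 members. It was 0.32 on the TPM scale, where the median of all genes was -0.22.

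Dvl2 fell from 13.1 and 14.4 FPKM in control to 5.88 and 7.64 FPKM with risperidone. That was a log2 fold change of -0.93 (SE 0.1, edgeR BH-adjusted p = 1.32e-05), or 52.4% of control, and it was -1.12 without the library that held kidney transcripts. In GENCODE, 19.7% of the exonic bases of Dvl2 overlap other genes, mostly Acadvl on the opposite strand, and whether the counting used strand is not given in the sources used here. Acadvl, which encodes a fatty acid oxidation enzyme, was at 68.8 and 70.3 FPKM in control and 62.5 and 59.4 FPKM with risperidone and was not called (log2 fold change -0.09, edgeR BH-adjusted p = 0.115).

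Dvl3 was at 23.2 and 22.0 FPKM in control and 19.2 FPKM in both risperidone libraries. It was called lower, with a log2 fold change of -0.15 and an edgeR BH-adjusted p of 0.0361, and the call was lost without the first control library (-0.12, adjusted p = 0.294), the second (-0.17, adjusted p = 0.132) or the second risperidone library (-0.12, adjusted p = 0.0736). Summed over the 3 genes, Dishevelled FPKM came to 57.8 and 58.5 in control and 55.0 and 57.2 with risperidone. Dvl1 made up 37.1% and 37.6% of this sum in control and 54.4% and 53.0% with risperidone, and Dvl2 22.7% and 24.7% against 10.7% and 13.4%. The log2 ratio of Dvl1 to Dvl2 FPKM was 0.70 and 0.61 in control and 2.35 and 1.99 with risperidone, a difference of 1.51 (exact permutation p = 0.333).

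**Figure D3:**
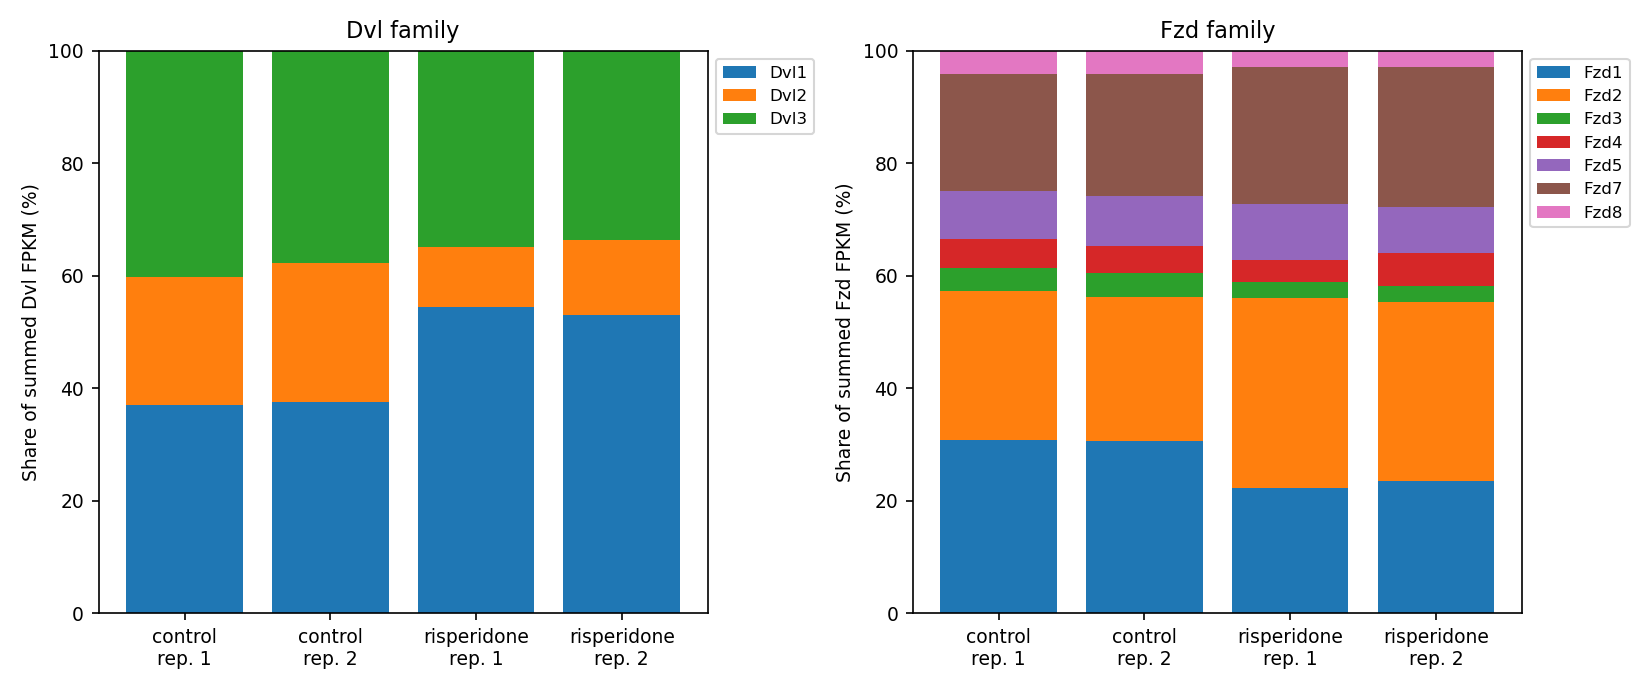
Share of each gene in the summed FPKM of the tested Dishevelled genes (left) and Frizzled genes (right), in percent, for the 4 libraries. The Dvl1 share is 37.1% and 37.6% in control and 54.4% and 53.0% with risperidone, and the Fzd1 share is 30.7% and 30.6% against 22.2% and 23.6%.

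Ctnnb1, which encodes beta-catenin, was among the more highly expressed members, with 157 and 161 FPKM in control and 101 and 116 FPKM with risperidone. Its log2 fold change was -0.47 (SE 0.063, edgeR BH-adjusted p = 6.31e-05), or 72.1% of control, and -0.57 without the second risperidone library. Its exons share 15.1% of their bases with other genes, mainly Ulk4 on the opposite strand, which had at most 0.84 FPKM in any library. Since beta-catenin is regulated chiefly through its breakdown, transcript levels give no measure of the protein.

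Of the scaffold genes, Apc was at 15.0 and 13.6 FPKM in control and 11.3 and 10.6 FPKM with risperidone, a log2 fold change of -0.28 (SE 0.055, edgeR BH-adjusted p = 0.00112). With offsets for transcript length and GC content it was -0.06 (adjusted p = 0.368). Axin1, the scaffold on which the complex forms, had 30.2 and 29.3 FPKM in control and 33.8 and 29.8 FPKM with risperidone. These groups overlapped in FPKM, and the call (log2 fold change 0.17, edgeR BH-adjusted p = 0.0334) was lost without the first control library (adjusted p = 0.117), the second (adjusted p = 0.177) or the first risperidone library (log2 fold change 0.07, adjusted p = 0.28). Without the second risperidone library it was 0.27 (adjusted p = 0.000573). On the TPM scale Axin1 had a negative value of -0.05.

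Of the 3 kinases of the complex, 1 was called, over 64.3% of all genes. Gsk3b was at 22.5 and 22.4 FPKM in control and 18.4 and 17.9 FPKM with risperidone, a log2 fold change of -0.19 (edgeR BH-adjusted p = 0.00609). This decrease was -0.16 without the first control library (adjusted p = 0.078) and -0.05 with the length and GC offsets (adjusted p = 0.461). Gsk3a was at 38.4 and 35.7 FPKM in control and 35.0 and 35.3 FPKM with risperidone and was not called (log2 fold change 0.01, SE 0.063, edgeR BH-adjusted p = 0.879). On the TPM scale, where the median of all genes was itself -0.22, limma called it lower (-0.22, adjusted p = 0.0123). An antisense gene covers 28.3% of its exonic bases. Csnk1a1, the kinase that primes beta-catenin, measured 119 FPKM in both control libraries and 108 and 107 FPKM with risperidone. Its log2 fold change was -0.05 in edgeR (BH-adjusted p = 0.396) and 0.03 with the offsets. Csnk1a1 was called lower by limma on FPKM, where the median of all genes was below 0 and 38.8% of them were lower.

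Of the 4 TCF/LEF factors, which bind DNA for beta-catenin, 2 could be tested. Both were called, over 64.3% of all genes, and they moved in opposite directions. Tcf7l1, known mainly as a repressor, was at 23.2 and 22.0 FPKM in control and 17.2 and 17.9 FPKM with risperidone. Its log2 fold change was -0.27 (SE 0.066, edgeR BH-adjusted p = 0.00451). Tcf7l2, the family member best known for its part in metabolism, was at 6.71 and 5.06 FPKM in control and 7.77 and 7.30 FPKM with risperidone. The control libraries differed from each other, yet both were below both risperidone libraries (log2 fold change 0.46, SE 0.1, edgeR BH-adjusted p = 0.00266). Without the first control library the value was 0.65 (adjusted p = 5.02e-05), and without the second it was 0.29 (adjusted p = 0.0262). On the TPM scale Tcf7l2 was at 0.21 and was not called (limma adjusted p = 0.164). The log2 ratio of Tcf7l2 to Tcf7l1 FPKM was -1.79 and -2.12 in control and -1.15 and -1.30 with risperidone (exact permutation p = 0.333).

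Lef1 was below the limit, with 40 and 38 counts in control and 24 and 10 with risperidone. The groups did not overlap but the risperidone libraries were far apart, and the test without a limit on low values did not call the gene (log2 fold change -1.10, edgeR BH-adjusted p = 0.114). Without the first risperidone library the value was -1.86 (adjusted p = 0.0119), and without the second, which held kidney transcripts, it was -0.58 (adjusted p = 0.147). Tcf7 had 1 count in the second control library and none elsewhere.

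Of the feedback genes and those of ligand secretion, 3 were tested and all 3 were called, over 64.3% of all genes. Each call was lost when single libraries were left out. Znrf3, a ubiquitin ligase that removes Frizzled receptors from the cell surface, was at 2.26 and 2.13 FPKM in control and 2.30 and 2.71 FPKM with risperidone (log2 fold change 0.29, edgeR BH-adjusted p = 0.0402). The call was lost without the first control library (0.34, adjusted p = 0.0914), the second (0.24, adjusted p = 0.249) or the second risperidone library (0.19, adjusted p = 0.183). Fits without a control library called 5391 and 5414 genes in all, against 6590 with all libraries, so that a call lost there does not show a smaller change. Nkd2, an inhibitor that binds Dishevelled, had 2 and 1 counts with risperidone and 0 in both control libraries.

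Porcn, the enzyme that attaches the lipid to Wnt ligands, was at 24.5 and 28.4 FPKM in control and 20.7 and 22.0 FPKM with risperidone (log2 fold change -0.22, edgeR BH-adjusted p = 0.0255). The value was -0.33 (adjusted p = 0.000931) without the first control library and -0.10 (adjusted p = 0.297) without the second. It was -0.22 without the first risperidone library and -0.21 without the second, where the call was lost at about the same size of change. Wls, the carrier of Wnt ligands, had the highest FPKM of all members, with 213 and 216 in control and 217 and 225 with risperidone. The log2 fold change of Wls was 0.12 (edgeR BH-adjusted p = 0.0404), with a value of -0.10 on the TPM scale. This call did not hold without the first control library (0.11, adjusted p = 0.236), the second (0.13, adjusted p = 0.152) or the second risperidone library (0.10, adjusted p = 0.056).

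Of all genes with transcripts of at least 4000 bases, 40.6% were called lower, and of those with shorter transcripts 26.8%. Among the members, 10 of 14 long and 5 of 10 short ones were lower. With offsets for transcript length and GC content, 13 members were lower and 4 higher, over a background of 30.0% lower and 34.3% higher, and the median was -0.21. The plot of the members under 5 settings shows that Fzd1, Fzd8, Dvl2 and Lrp6 lay left of -0.5 and Dvl1 right of 0 in each of those 5. Fzd4 did so too, but it was at -0.34 without the first risperidone library, which is not among them.

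**Figure D4:**
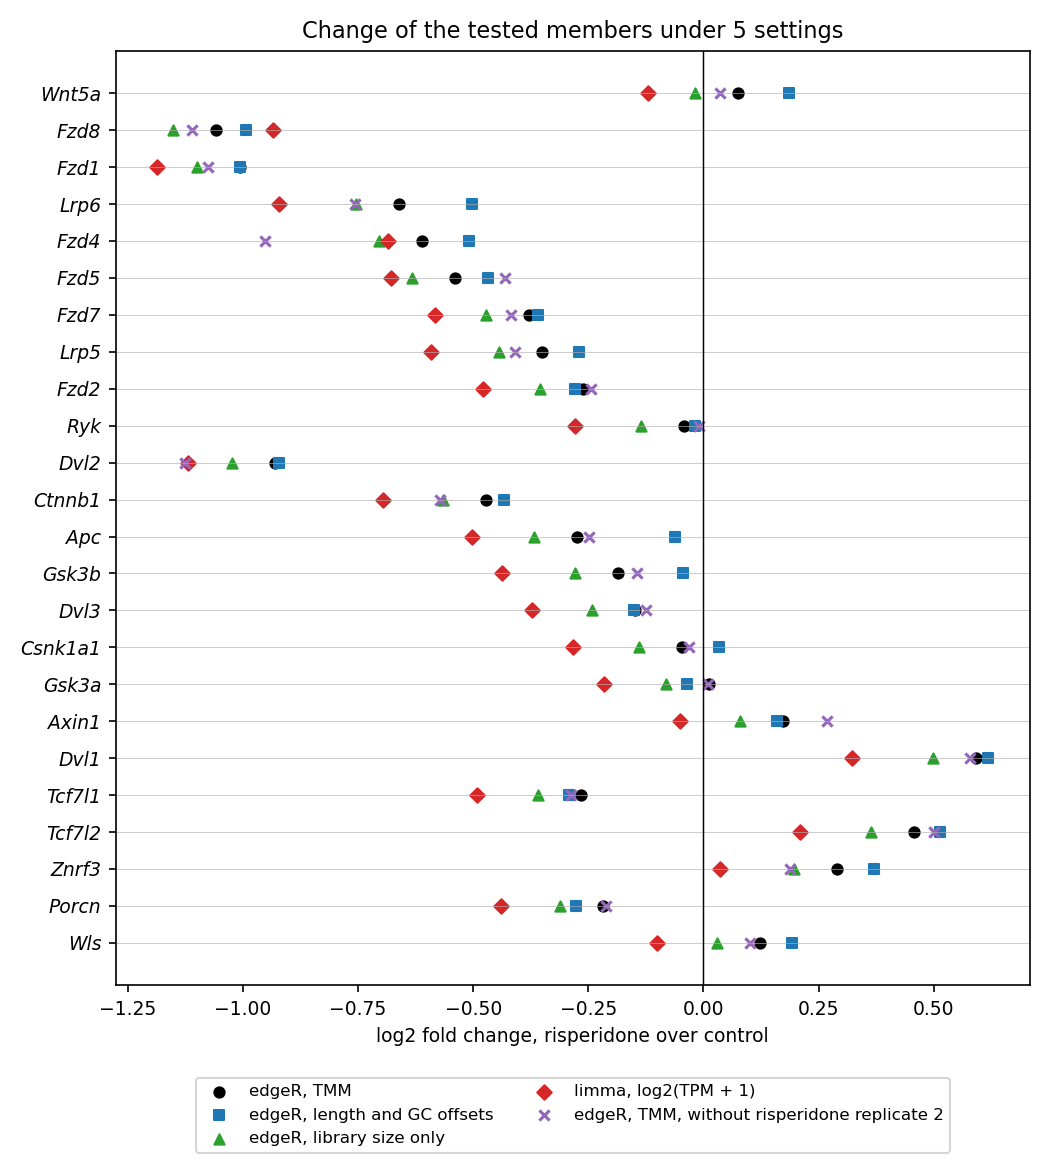
Log2 fold change of the 24 tested Wnt genes, risperidone over control, under 5 settings of scaling, offsets and libraries. Points of the TPM scale (red diamonds) lie left of those of edgeR for most genes, where the median of all genes is -0.22; Fzd1 lies between -1.19 and -1.01.

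Other genes of the pathway were examined as a list of 94, of which 78 were in the table and 46 were tested. Of these 46, 19 were lower, 11 were higher and 16 were not called, over the same shares of all genes (32.2% lower, 32.1% higher), with a median log2 fold change of -0.09. With TPM scaling the split was 28 lower and 6 higher, over 51.7% and 15.0% of all genes. With library size scaling it was 24 and 8, over 39.9% and 24.4%, and with the length and GC offsets 17 and 15, over 30.0% and 34.3%. Fzd3, Frat2 and Prickle4 averaged under 1 FPKM in 1 group and passed the limit through the other; without them 18 of 43 were lower and 10 higher. None of the 9 further ligands in the table and none of the 6 further inhibitors reached a mean of 1 FPKM. Of the 14 nuclear genes tested, 8 were lower and 4 were higher, over 32.2% and 32.1% of all genes.

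Fzd3, a Frizzled receptor outside the chosen members, had 2.02 and 2.13 FPKM in control and 0.89 and 0.93 FPKM with risperidone (log2 fold change -1.10, SE 0.092, edgeR BH-adjusted p = 2.18e-06). Like Fzd8 it passed the limit through the control group alone, and in the fit without that limit it was -1.10 (adjusted p = 0.000554). The Groucho family of corepressors, which TCF/LEF factors recruit, moved in both directions, with Tle2 and Tle1 lower. Tle2 went from 8.70 and 10.7 FPKM to 3.10 and 3.28 FPKM, a log2 fold change of -1.51 (SE 0.12), and Tle1 from 44.9 and 46.2 FPKM to 27.2 and 24.5 FPKM, a log2 fold change of -0.86 (SE 0.058). Adjusted p-values in edgeR (BH) were 1.56e-06 and 4.73e-07. The other members of the family tested, named after their values were seen, had positive log2 fold changes. Aes, a short relative also named Tle5, rose from 225 and 206 FPKM to 291 and 280 FPKM (log2 fold change 0.50, edgeR BH-adjusted p = 1.61e-05). Tle3 was called higher at 0.26 (BH-adjusted p = 0.00159), but was at 0.016 on the TPM scale. Tle4 was called at 0.26 (BH-adjusted p = 0.0348), a call lost without the first control library (0.19, adjusted p = 0.312), the second (0.34, adjusted p = 0.0776) or the second risperidone library (0.22, adjusted p = 0.104). Tle6 was not called (0.21, and -0.013 on the TPM scale).

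Apcdd1, a membrane inhibitor of the Wnt pathway, was higher, at 4.29 and 4.37 FPKM in control and 8.05 and 7.12 FPKM with risperidone (log2 fold change 0.91, SE 0.11, edgeR BH-adjusted p = 3.52e-05). Daam2, a formin that binds Dishevelled, rose from 8.34 and 8.23 FPKM to 12.34 and 11.98 FPKM (log2 fold change 0.65, edgeR BH-adjusted p = 6.48e-06). Its relative Daam1, named after its values were seen, fell from 12.9 and 12.4 FPKM to 8.17 and 8.69 FPKM (log2 fold change -0.50, edgeR BH-adjusted p = 6.02e-05). Frat2, which binds Gsk3, was at 1.03 and 0.84 FPKM in control and 1.52 and 1.38 FPKM with risperidone (log2 fold change 0.73, SE 0.25, edgeR BH-adjusted p = 0.0241). It passed the limit through the risperidone group alone, and the call was lost in the fit without that limit (0.73, adjusted p = 0.0581), in DESeq2 (0.74, adjusted p = 0.133), without the second control library (0.59, adjusted p = 0.165) and without the first risperidone library (0.66, adjusted p = 0.0744).

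Of 30 genes known in some cell types as targets of beta-catenin and TCF/LEF factors, 22 were in the table and 15 were tested. The list was written with earlier results of these data known. Sp5, Nkd1, Dkk1 and Tnfrsf19 were not in the table. Rnf43, Notum and Lgr5 were too low to be tested, with at most 7 counts in any library. With risperidone, 9 of the 15 were higher, 2 were lower and 4 were not called, over 32.1% of all genes higher and 32.2% lower, and the median log2 fold change was 0.60 (0.31 on the TPM scale). Without Plaur and Wisp2, which averaged under 1 FPKM in control, 8 of 13 were higher and 2 lower. Plaur, the urokinase receptor, had 12 and 15 counts in control and 40 and 42 with risperidone, a log2 fold change of 1.69 (SE 0.3, edgeR BH-adjusted p = 0.000526). Its control libraries were under 1 FPKM (0.53 and 0.69), so that it passed the limit through the risperidone group alone; in the fit without that limit it was 1.68 (adjusted p = 0.00787). Myc, a transcription factor of cell growth, was at 6.07 and 6.23 FPKM in control and 17.9 and 14.0 FPKM with risperidone, a log2 fold change of 1.47 (SE 0.11). Id2, an inhibitor of basic helix-loop-helix factors, went from 7.41 and 7.24 FPKM to 18.0 and 17.9 FPKM, a log2 fold change of 1.39 (SE 0.11). For both, the risperidone libraries lay well above those of the control, with edgeR BH-adjusted p-values of 1.18e-06 and 1.69e-06. All of these genes also respond to other signals, and the activity of beta-catenin was not tested.

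In the other direction, Jun, a subunit of AP-1, was at 12.7 and 13.1 FPKM in control and 8.90 and 8.45 FPKM with risperidone (log2 fold change -0.48, edgeR BH-adjusted p = 5.2e-05). Wisp1, a secreted matricellular protein now also named Ccn4, was at 3.37 and 2.46 FPKM in control and 1.79 and 1.88 FPKM with risperidone (log2 fold change -0.57, edgeR BH-adjusted p = 0.00881). Without the first control library the value for Wisp1 was -0.33 (adjusted p = 0.188). The plot by list shows receptors below 0 and most target genes above it.

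**Figure D5:**
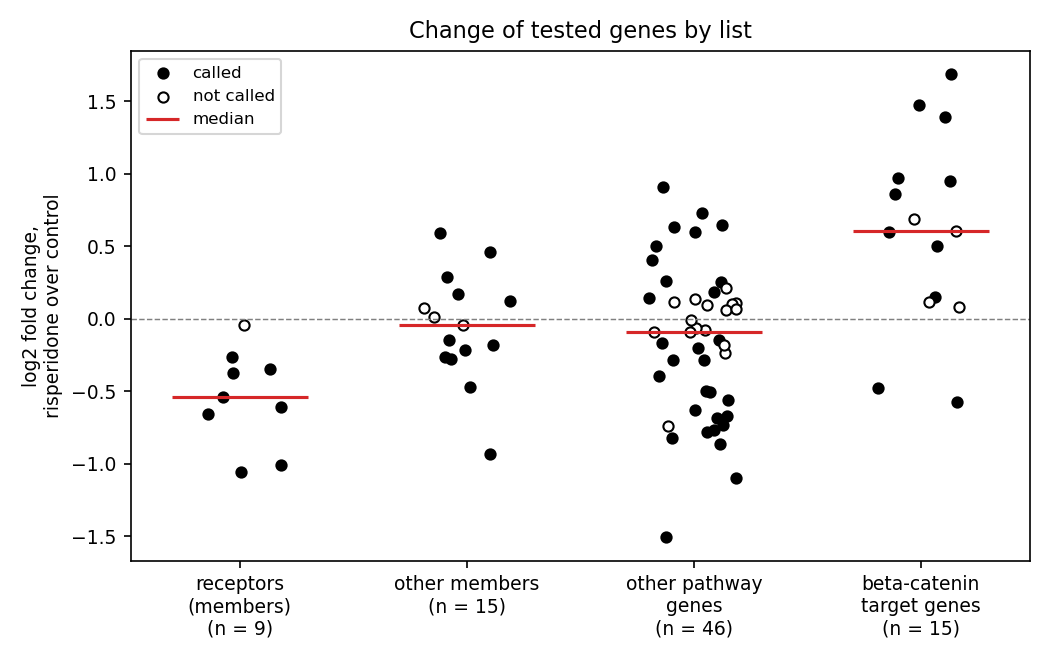
Log2 fold change of tested genes in 4 lists, risperidone over control, from edgeR, with a red line at each list's median and filled points for called genes. Medians are -0.54 for the 9 receptors, -0.05 for the other 15 members, -0.09 for the 46 other pathway genes and 0.60 for the 15 target genes, beside 0.00 for all genes tested.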

How the data were processed

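mRNA of 2 control and 2 risperidone libraries was analysed, with groups taken from the labels. Per the labels' processing notes, Bowtie2, RSEM, DESeq2 and GRCm38.p6 were used; their versions, the annotation and the strand setting are not given in the sources used here. The authors deposited 1 table with estimated (expected) counts, FPKM and TPM per gene and library. The estimated counts were deposited by the authors without normalization and were whole for 91.2% to 91.7% of values. FPKM values, as deposited, are scaled by transcript length and mapped fragments, and TPM values, as deposited by the authors, sum to the same total in each library.

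The members and gene lists were chosen with earlier results of these data known, and the lists were written from general knowledge. All members are named, with up to 3 called genes in each direction from the other lists that had at least 20 counts in at least 2 libraries, and any tested gene of the Wnt, Fzd, Sfrp, Dkk, Ror or Nkd families or Rnf43. Aes, Tle3, Tle4, Tle6, Daam1, Prickle4 and Wisp2 were added after their values were seen. The untested target genes Sp5, Nkd1, Dkk1, Tnfrsf19, Rnf43, Notum and Lgr5 were named after the results were known. Counts were rounded and tested in R 4.3.3 with edgeR 4.0.16 (glmQLFit, glmQLFTest, TMM, two-sided) over genes that averaged 1 FPKM or more, with Benjamini-Hochberg adjustment over all of them. The biological coefficient of variation was 0.0468, and an SE was taken as the size of the log2 fold change over the root of its F statistic. Alternatives were DESeq2 1.42.0, limma 3.58.1 with pseudocounts of 1 and 0.1, other scalings and limits, each library left out and a replicate block. Offsets for transcript length and GC content (GENCODE mouse release M21) were a further alternative. Fits without a limit on low values that left out a library or added the block, for 5 low members, were added after the data were seen. Scripts were tested on simulated data. Replicate counts differed beyond the 5% limit of counting error (chi-square) for 12.4% of genes in control and 23.6% with risperidone; counts of 0 cover counting error only. Sequences are from RefSeq (GRCm38.p6). Tables were read with Python 3.11.15 and pandas 2.3.3, and figures drawn with matplotlib 3.10.9.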

Additional observations from a re-analysis of the deposited data

How the results depend on the processing

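Over the named genes, 510 values under the alternatives kept their direction and side of the threshold, 63 lost the call, 10 gained it and 13 reversed. The count of members called higher, 5, was 3 without a limit on low values, at a limit of 5 FPKM and in DESeq2, 2 with library size only and with limma at either pseudocount on FPKM, 1 on TPM, and 2 to 4 with 1 library left out. At a log2 fold change of 1 or more in size, the count was 0 higher and 2 lower. The count of members called lower, 15, was 12 to 13 with 1 library left out. Over all genes, as reported 32.1% were higher and 32.2% lower, without a limit 18.4% and 19.3%, at 5 FPKM 33.1% and 33.9%, in DESeq2 25.8% and 25.9%, and with library size only 24.4% and 39.9%. With limma they were 23.6% and 38.8% at a pseudocount of 1, 23.7% and 38.8% at 0.1, and 15.0% and 51.7% on TPM. Without control replicate 1 they were 26% and 26.6%, without control replicate 2 26.2% and 26.6%, without risperidone replicate 1 30.1% and 30.6%, and without risperidone replicate 2 32.3% and 32.7%. For the other pathway genes, the 11 called higher became 7 at 5 FPKM, in DESeq2 and with limma on log2(FPKM + 0.1), 6 on TPM, and 7 to 11 with 1 library left out (7 without control replicate 2). The 2 target genes called lower became 1 at 5 FPKM and 1 without control replicate 1 (1 to 2 over the libraries left out). Reversed values were those of Wnt5a with library size only (-0.019) and TPM (-0.12), Axin1 on TPM (-0.051), Wls on TPM (-0.10), Tle6 on TPM (-0.013), Csnk1a1 with the offsets (0.035), and Gsk3a at 5 FPKM (-0.013), with library size only (-0.081), with limma on FPKM (-0.073 and -0.075), on TPM (-0.22), with the offsets (-0.035) and, over the libraries left out, from -0.039 (without control replicate 2) to 0.066. The cause was not tested. The labels number the replicates alike. Deviations of same-numbered libraries from their group means had a correlation of -0.06 across 10243 genes (2 pairs). With 2 libraries per group this value cannot tell whether same-numbered libraries were handled together. With the replicate block 15 members were lower and 4 higher, over 32.4% and 32.1% of all genes in that fit. There Wls lost its call (edgeR adjusted p = 0.0945). With the block and without a limit on low values, Lef1 gained a call (edgeR adjusted p = 0.00467). Depth limits the 15 members under 1 FPKM.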
